A study of Saccharomyces cerevisiae with 15 samples.

Results

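Budding yeast (Saccharomyces cerevisiae) given in the labels only as wild type was exposed to 1.0 mM arsenite, As(III), for 30 min and set against unstressed wild-type yeast. The titles assign 3 of the series' 15 arrays to this time, as replicates 1 to 3, and those 3 arrays were taken for the comparison. Each was a 2-colour spotted slide on which RNA of the treated cells, in Cy5, and RNA of the untreated cells, in Cy3, had been hybridised together. Because treated RNA was in Cy5 on all 3, a gene-specific dye effect cannot be told apart from an effect of arsenite. The same dose had been given for 15 min (3 arrays) and for 1 h (6 arrays, with treated RNA in Cy3 on replicates 1, 3 and 6), and these groups are used below to place the 30 min values in time. The series' other 3 arrays, after 18 h of the same dose, entered the fit and so its estimate of the spread, and are not described here. Strain background, medium, growth phase and the harvest time of the untreated cells are not stated by the labels used here. Whether the replicates were separate cultures is not stated either, so a p-value reflects only how far these arrays differed, which may be technical.

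Arsenite is a trivalent arsenic that binds the thiol groups of proteins and of glutathione, and it disturbs protein folding and the redox balance of the cell. In yeast it enters mainly through the glycerol channel Fps1 and through hexose transporters, leaves through the exporter Arr3, and is moved into the vacuole by Ycf1 after it has bound glutathione. Known regulators of the response include Yap1 (redox genes), Arr1 (the arsenic export genes), Met4 (sulfur assimilation), Hsf1 (chaperones), Rpn4 (the proteasome) and the pair Msn2 and Msn4 (general stress genes). As in other stresses, transcripts for ribosomes and for amino acid synthesis are commonly lowered while growth pauses.

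Every value below, unless named otherwise, is the log2 of treated over untreated signal, averaged over the spots of a gene and centred on the median of 5539 genes on its array. A value of 1 is therefore a 2-fold higher treated signal relative to the median gene. Centring removes any change that most transcripts shared. The mean of the 3 arrays was tested against 0 with limma, fitted over all 15 arrays. A gene is said to have risen or fallen where its adjusted p (Benjamini-Hochberg over all genes, two-sided) was under 0.05. Errors are limma standard errors of the mean of 3 arrays, with the spread estimated over all 15 arrays. They do not show how far the 3 arrays of a gene lay apart. Genes are named by a rule given under the processing; members named to complete the account of a list, called or not, were chosen after their values were seen. That the ratios run treated over untreated is likely and not stated: it rests on the dyes, on the order of conditions in the titles, and on 30, 5 and 23 zeros with a minus sign on the 1 h arrays that carried treated RNA in Cy3.

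The 3 arrays were not alike. Replicates 2 and 3 correlated with each other at r = 0.927 across genes, which are not independent replicates, whereas replicate 1 correlated with them at 0.406 and 0.425. Replicate 1 had a narrower spread of ratios (SD 0.489, against 1.10 and 1.12 on replicates 2 and 3), and its duplicate spots were correlated at 0.837 (0.980 on both others). Its deposited values were not log2 ratios of whole numbers, as those of replicates 2 and 3 were at every spot, so how they were made and whether their log base is 2 is unknown. On replicates 2 and 3 the ratio fell with the brightness of the spot: the median of the brightest eighth of genes lay -1.92 and -1.83 from that of the dimmest eighth, against 0.031 on replicate 1. Replicate 2 of the 15 min group resembled them, with r = 0.838 and 0.823 against 30 min replicates 2 and 3. Values are therefore given array by array. A spot's brightness is not in the table. It was recovered on the 10 arrays whose ratios are ratios of whole numbers, as the mean log2 of the smallest pair of whole numbers giving the ratio, which is below the true brightness where the pair had a common factor, and it was averaged over those arrays. Counts with an array left out are given with the lists, as are calls of named genes that were lost when a lowess curve on this brightness was taken off each array.

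After 30 min, 276 genes had risen (4.98% of those tested) and 702 had fallen (12.7%). An unadjusted p under 0.05 was reached by 1936 genes. The mean differed by more than 2-fold in 166 of the risen and 572 of the fallen genes, and all 3 arrays had the same sign in 273 and 634 of them. These counts rest on replicates 2 and 3. They were 580 and 1001 without replicate 1, 46 and 27 without replicate 2, and 33 and 21 without replicate 3. With the 3 arrays fitted alone, 15 genes rose and 0 fell. On replicate 1, 195 genes lay above 1 and 69 below -1, against 693 and 1003 on replicate 2, and 695 and 944 on replicate 3.

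Among called genes of the same sign on all 3 arrays, HSP26 and HSP12 had the largest rises. HSP26, a small heat shock protein that holds unfolded proteins, had 2.14, 5.85 and 6.13 on replicates 1, 2 and 3 and a mean of 4.71 ± 0.54 (26.1-fold, adjusted p = 0.000172). It was high on all 3 arrays, but far higher on replicates 2 and 3. HSP12, a membrane-associated hydrophilin of stressed cells, had 3.73, 4.41 and 4.62, a mean of 4.25 ± 0.33 (19.0-fold, adjusted p = 2.39e-06). OYE3, an NADPH oxidoreductase of the old yellow enzyme family, had 3.26, 4.04 and 4.38, a mean of 3.89 ± 0.33 (14.9-fold). For both genes the arrays lay close together. SSA4, the stress-induced cytosolic Hsp70, had 3.47, 3.32 and 3.17 and a mean of 3.32 ± 0.45 (9.97-fold, adjusted p = 0.000536), with replicate 1 the highest. RTC3, a small protein linked to RNA metabolism, averaged 3.18 ± 0.41, and the mitochondrial peroxiredoxin PRX1 averaged 2.98 ± 0.35. The cytosolic catalase gene CTT1 had 1.33, 3.16 and 3.57, and TMA10, a ribosome-associated protein, had 0.67, 3.30 and 3.45, both lowest on replicate 1. YMR090W, an uncharacterised gene, had 2.12, 2.65 and 3.13 and a mean of 2.63 ± 0.50 (adjusted p = 0.00272). The remaining 3 of the 12 were the metallothionein gene CUP1-1, the aryl-alcohol dehydrogenase AAD14 and the ATP sulfurylase MET3, given with their lists below.

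The 12 largest falls were mostly of ribosomal protein genes. RPL3, a large-subunit protein, had -0.60, -4.87 and -4.97 on replicates 1, 2 and 3 and a mean of -3.48 ± 0.69 (adjusted p = 0.00383). RPL4A, of the same subunit, had -0.54, -4.68 and -4.94 (mean -3.38 ± 0.68). RPS0B, of the small subunit, had -0.96, -4.04 and -4.52 (mean -3.17 ± 0.54). In each of these genes replicates 2 and 3 lay more than 3 log2 units below replicate 1. RPL1A, RPS3, RPL6B, RPL16B, RPL23B and RPL15B had means between -3.26 and -2.88. The other 3 of the 12 were GDH1, ILV5 and CBF5. GDH1, the NADP-dependent glutamate dehydrogenase that assimilates ammonium, had -1.17, -4.05 and -4.23 (mean -3.15 ± 0.52). ILV5, an enzyme of branched-chain amino acid synthesis, had -0.073, -4.27 and -4.47 (mean -2.94 ± 0.60) and so was near 0 on replicate 1. CBF5, the pseudouridine synthase of ribosomal RNA, had -0.80, -4.03 and -3.87 (mean -2.90 ± 0.51). Because a spotted probe may hybridise to a gene's close paralog, which copy gave the signal is uncertain for CUP1-1 and CUP1-2, the aryl-alcohol dehydrogenases, duplicated ribosomal protein and histone genes, HXT6 and HXT7, EFT1 and EFT2, and the pair SSA3 and SSA4.

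**Figure D1:**
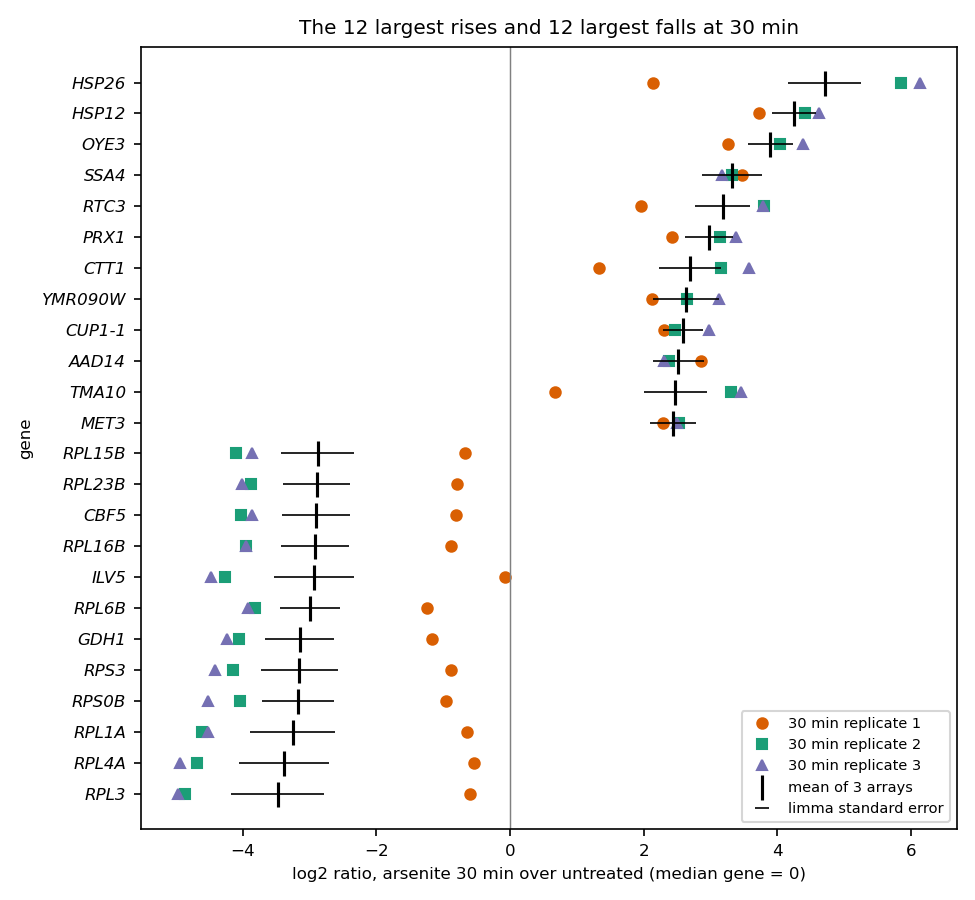
Log2 ratio at 30 min over untreated (horizontal axis, median gene = 0) for the 12 genes with the largest rise and the 12 with the largest fall among called genes of one sign on all 3 arrays, with each array as a point, the mean as a vertical tick and the limma standard error as a bar (n = 3). The 3 points of HSP12, OYE3, SSA4, AAD14 and MET3 lie close together, while in all 12 falls replicate 1 lies between -1.24 and -0.073 and replicates 2 and 3 lie below -3.

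Some of the largest rises were of genes for cytosolic protein folding and of other heat shock genes. Of 35 measured members of the list of Hsp70, Hsp90 and partner genes, 11 rose (31.4%, beside 4.98% of all genes) and 2 fell, and the list's median was 0.84 (0.79, 0.97 and 0.91 on replicates 1, 2 and 3, against a median of 0 for all genes). The list also holds HSP12, HSP26, HSP30, HSP31, HSP32 and HSP42, and HSP12 is counted again among the hydrophilins. Beside HSP26, HSP12 and SSA4 the risen members included SSA3, the other stress-induced Hsp70, with 1.02, 2.54 and 3.17 and a mean of 2.24 ± 0.45. HSP31, a methylglyoxalase and chaperone, had 2.52, 1.82 and 2.02 and a mean of 2.12 ± 0.35 (adjusted p = 0.00165). Replicate 1 was the highest of the 3 arrays for SSA4 and HSP31, and the lowest for HSP26 and HSP12. HSP104, the disaggregase that works with Hsp70, had 2.52, 0.57 and 0.99 and a mean of 1.36 ± 0.43. SIS1, the J-domain protein that directs Hsp70 to aggregates, had 0.98, 1.51 and 1.52 and a mean of 1.34 ± 0.24. The other 4 that rose were the Hsp90 partners CPR6 and STI1, the nucleotide exchange factor SSE2 and the constitutive Hsp70 SSA2, with means from 0.84 (SSA2) to 1.70 (CPR6). SSB2, an Hsp70 of the ribosome, fell, with -0.37, -3.26 and -3.20 and a mean of -2.28 ± 0.69. Its J-domain partner ZUO1 fell too, with -0.37, -1.69 and -2.01 and a mean of -1.35 ± 0.38. Both fell on replicates 2 and 3 and were at -0.37 on replicate 1. Without replicate 1 the counts were 11 higher and 3 lower, without replicate 2 or 3 they were 4 higher and 0 lower, and after the brightness trend was removed they were 25 higher and 0 lower, with SSB2 (adjusted p = 0.116) and ZUO1 (0.0678) no longer called. HSP42, which gathers aggregated proteins, had -0.43, 3.13 and 2.73 and was not called (adjusted p = 0.0661), high on replicates 2 and 3 and below 0 on replicate 1. BTN2, another sorting factor of aggregates, had 2.42, 1.54 and 1.28 (adjusted p = 0.072), and HSP82, the stress-induced Hsp90, 0.64, 0.98 and 0.64 (adjusted p = 0.14).

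Fewer members were called in the other chaperone lists. Of 19 endoplasmic reticulum chaperone and folding genes, 0 rose or fell, with a median of 0.00 and extremes at ERO1 (0.72), the oxidase of disulfide formation, and FPR2 (-0.83), a proline isomerase. Of 13 mitochondrial chaperone and protease genes, HSP10, the cochaperonin, rose (0.93, 1.07 and 1.12, mean 1.04 ± 0.27), and the other 12 were not called. This was 7.69% of the list, beside 4.98% of all genes. The list's median was 0.42, and 8 of the 13 were positive on all 3 arrays. Of 15 cytosolic chaperonin and prefoldin genes, with a median of -0.050, the prefoldin subunit PAC10 fell (-0.93 ± 0.31), and 14 were not called. PAC10 was 6.67% of the list, beside the 12.7% of all genes that fell. In these 3 lists 0 members were called without replicate 2 or without replicate 3. After the brightness trend was removed, 4 endoplasmic reticulum, 6 mitochondrial and 4 chaperonin and prefoldin genes rose, and 1 of the last list fell.

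Of 42 measured proteasome subunit and assembly genes, 18 rose and 0 fell (42.9% of the list, beside 4.98% of all genes). All 3 arrays were positive in 36 of the 42, and the median was 0.73 (0.97, 0.45 and 0.76 on replicates 1, 2 and 3). Here replicate 1 was the highest array. UMP1, the assembly chaperone, had 1.51, 1.33 and 1.52 and a mean of 1.45 ± 0.24 (adjusted p = 0.00172), and ECM29, which tethers the core to the cap, had 1.37, 1.47 and 1.52 and a mean of 1.45 ± 0.30. The lid subunit RPN11 had 1.28, 0.83 and 1.34 and a mean of 1.15 ± 0.18. The other 15 risen genes had means from 0.72 (PUP2) to 1.07 (PRE4). Without replicate 1 the count was 9, without replicate 2 or 3 it was 2, with the brightness trend removed it was 35 with a median of 1.28, and with the values not centred it was 0. The median gene of the arrays lay at -0.409, -0.514 and -0.0989 before centring, and the proteasome list's median in the deposited values was 0.39. RPN4, the transcription factor of these genes, had 1.18, 0.067 and 0.18 and was not called (mean 0.48 ± 0.37, adjusted p = 0.364). It was high on replicate 1 and near 0 on the others.

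In the list of ubiquitin, Cdc48 and related genes, 7 of 27 rose (25.9%, beside 4.98% of all genes) and 2 fell (7.41%, beside 12.7%). DDI1, a ubiquitin-binding protease, had 1.89, 2.04 and 2.22 and a mean of 2.05 ± 0.26 (adjusted p = 0.000326). UBC5, a stress-induced ubiquitin-conjugating enzyme, had 1.46, 2.01 and 2.04 and a mean of 1.84 ± 0.28. The arrays of DDI1 lay close together, and UBC5 was lowest on replicate 1. CUZ1, a zinc-finger protein that binds Cdc48 and the proteasome and is known from arsenite resistance, had 1.46, 1.49 and 2.01 and a mean of 1.65 ± 0.24, and its paralog TMC1 averaged 1.03 ± 0.25. Cdc48 partners SHP1 (0.93), UBX4 (0.89) and UFD1 (0.86) rose as well. UFD2, which extends ubiquitin chains (-0.37, -1.95 and -1.73), and SAN1, a nuclear ubiquitin ligase (-0.38, -0.96 and -0.77), fell, both more on replicates 2 and 3 than on replicate 1. The polyubiquitin gene UBI4 averaged 0.78 ± 0.31 (adjusted p = 0.0896) and CDC48 itself 0.52 ± 0.38 (adjusted p = 0.336), and neither was called. The counts were 8 and 2 without replicate 1, 3 and 0 without replicate 2 or 3, and 16 and 2 after the brightness trend was removed.

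Redox defence genes rose in both of their lists. Of 29 thioredoxin, peroxiredoxin and superoxide defence genes, 9 rose (31%, beside 4.98% of all genes) and 0 fell, with a median of 0.71 (0.63, 0.66 and 0.73 on replicates 1, 2 and 3). OYE3, PRX1 and CTT1 led them. PRX1 had 2.42, 3.14 and 3.38 (adjusted p = 0.000198), and GRE2, a methylglyoxal reductase, had 1.18, 2.24 and 2.55 (mean 1.99 ± 0.57, adjusted p = 0.0248). TRX2, a cytosolic thioredoxin, had 1.68, 1.43 and 1.84 (mean 1.65 ± 0.29), and AHP1, a thioredoxin-dependent peroxiredoxin, had 1.12, 1.75 and 1.90 (mean 1.59 ± 0.37). GRE2 and AHP1 were lowest on replicate 1, and TRX2 was not. MXR1, which repairs oxidised methionine, had 1.55, 1.31 and 1.51 (mean 1.46 ± 0.27), nearly equal on the 3 arrays. The cytochrome c peroxidase gene CCP1 averaged 1.12 ± 0.35 and the mitochondrial superoxide dismutase gene SOD2 1.08 ± 0.29. Without replicate 1 the list had 10 higher and 1 lower, without replicate 2 it had 5 higher, and without replicate 3 it had 2. After the brightness trend was removed 16 were higher, and CCP1 was no longer called (adjusted p = 0.0986). Thioredoxin reductase TRR1 averaged -0.018 ± 0.35 and sulfiredoxin SRX1 1.29 ± 0.56, both not called (adjusted p = 0.974 and 0.115).

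Of 28 genes for glutathione, glutaredoxins and transferases, 9 rose (32.1%, beside 4.98% of all genes) and 1 fell (3.57%, beside 12.7%). DUG2, a subunit of an enzyme that degrades glutathione, had 0.77, 1.73 and 2.11 and a mean of 1.54 ± 0.36. ECM4, a glutathione transferase, had 1.88, 1.27 and 1.27 and a mean of 1.47 ± 0.33. Replicate 1 was the lowest array for DUG2 and the highest for ECM4. The transferases GTT2 (1.41) and GTO1 (1.10), glutaredoxin GRX2 (1.39), glyoxalase GLO1 (1.00) and the formaldehyde dehydrogenase SFA1 (1.25) rose too. GEX2, a glutathione exchanger, fell (0.41, -3.88 and -3.77, mean -2.41 ± 0.65), on replicates 2 and 3 while replicate 1 lay above 0. GSH1, the enzyme of the rate-limiting step of glutathione synthesis, had 1.65, 0.47 and 0.36 and was not called (adjusted p = 0.0788), nor was glutathione reductase GLR1 (1.00, 0.67 and 0.69, adjusted p = 0.054). Without replicate 2 or 3, 1 member of the list was called higher. With the values not centred, 0 members rose and 1 fell, while 20 of all genes rose. In that fit the Hsp70, ubiquitin and thioredoxin lists above had 4, 0 and 3 risen genes. The aryl-alcohol dehydrogenase, sulfate assimilation and hydrophilin lists, given below, had 1, 2 and 6.

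Of 7 aryl-alcohol dehydrogenase genes, a family that includes known Yap1 targets and has no settled role, 6 rose (85.7%): AAD14 (2.86, 2.38 and 2.31), AAD6 (1.33, 2.49 and 2.04), AAD10 (2.02, 1.45 and 2.18), AAD3 (1.95, 2.05 and 1.62), AAD15 (2.71, 2.67 and 0.11) and AAD4 (0.49, 1.51 and 1.45). All 3 arrays were positive in all 7 genes, and AAD15 was near 0 on replicate 3 only. The seventh, YPL088W, averaged 0.20 ± 0.30. The count was 6 without replicate 1, 2 without replicate 2 and 3 without replicate 3.

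Genes of sulfate assimilation and sulfur amino acid synthesis moved both ways. Of 33 measured genes, 9 rose (27.3%) and 4 fell (12.1%), beside 4.98% and 12.7% of all genes. MET3, ATP sulfurylase, which starts sulfate activation, had 2.28, 2.53 and 2.50 and a mean of 2.44 ± 0.34 (5.42-fold, adjusted p = 0.000706). MET14, the kinase of the next step, had 2.04, 1.44 and 1.54 and a mean of 1.67 ± 0.32. MET16, the reductase that follows it, had 2.22, 2.31 and 2.30 and a mean of 2.28 ± 0.31 (4.84-fold, adjusted p = 0.000536). The 3 arrays of MET3 and of MET16 lay within 0.3 of each other. MET1 and MET8, which make the sirohaem of sulfite reductase, averaged 1.26 ± 0.32 and 1.37 ± 0.32, and CYS3, cystathionine gamma-lyase, averaged 1.38 ± 0.44. The sulfite reductase subunits MET5 (0.83 ± 0.50) and MET10 (0.80 ± 0.41) and the sulfhydrylase MET17 (1.37, 0.83 and 0.76) were not called (adjusted p = 0.237, 0.167 and 0.0581). MET13, a methylenetetrahydrofolate reductase, fell, with -0.58, -3.28 and -3.13 and a mean of -2.33 ± 0.47. SAH1, which hydrolyses S-adenosylhomocysteine, fell, with 0.048, -2.57 and -2.37 and a mean of -1.63 ± 0.48. The other 2 that fell were the adenosine kinase ADO1 (-1.47 ± 0.37) and HOM2 of homoserine synthesis (-1.25 ± 0.39). SAH1 lay near 0 on replicate 1, and all 4 were lower on replicates 2 and 3 than on replicate 1. The counts were 8 and 6 without replicate 1, 3 and 0 without replicate 2, 2 and 0 without replicate 3, and 16 and 2 after the brightness trend was removed, when SAH1 (adjusted p = 0.228) and HOM2 (0.514) were no longer called.

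Of the 6 measured regulators of sulfur metabolism, MET28, a cofactor of Met4, rose (0.63, 1.05 and 0.96, mean 0.88 ± 0.24, adjusted p = 0.018). MET4 itself had 0.40, 1.42 and 0.19 (adjusted p = 0.0517) and MET32 -0.20, 1.56 and 1.52 (adjusted p = 0.135). Neither was called, and MET32 was high on replicates 2 and 3 and below 0 on replicate 1. MET30, the ubiquitin ligase subunit that restrains Met4, averaged 0.51 ± 0.24, MET31 0.29 ± 0.36 and CBF1 -0.28 ± 0.25, all not called. MET28 was 16.7% of the list, beside the 4.98% of all genes that rose, and it lost its call without replicate 2 or 3.

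Of 11 genes of arsenic transport and detoxification, ARR2 alone was called, as higher (9.09% of the list, beside 4.98% of all genes). ARR2, an arsenate reductase, had 3.17, 1.45 and 1.41 and a mean of 2.01 ± 0.38 (4.03-fold, adjusted p = 0.00264), with replicate 1 more than 1.5 log2 units above the others. ARR3, the exporter, had 1.56, 0.87 and 0.86 and a mean of 1.10 ± 0.42, which missed the threshold (adjusted p = 0.0804). The regulator ARR1 had 0.087, -0.87 and -0.44 and a mean of -0.41 ± 0.33 (adjusted p = 0.374). Replicate 1 was the highest array for all 3 of these genes. The vacuolar pump YCF1 had 0.54, -0.65 and -0.84 (adjusted p = 0.452). Its relative VMR1 had -0.56, -1.57 and -1.18 (adjusted p = 0.0517) and YBT1, another vacuolar pump of the family, -0.74, 0.74 and 0.67 (adjusted p = 0.629). YCF1 was positive on replicate 1 and negative on the others, and YBT1 was the reverse. FPS1, the influx channel, had -0.12, 0.33 and 0.074, and its regulators RGC1 and ASK10 averaged 0.077 ± 0.26 and 0.026 ± 0.25. On every array these 3 lay between -0.12 and 0.33. HXT1 (-0.88 ± 0.31, adjusted p = 0.0618) and HXT9 (0.67 ± 0.32, adjusted p = 0.146), hexose transporters in the list, were not called.

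All 3 measured metallothionein genes rose. CUP1-1, a copy of the copper metallothionein gene, had 2.31, 2.47 and 2.98 and a mean of 2.58 ± 0.30 (5.99-fold, adjusted p = 0.000172). CUP1-2, the other copy, had 2.22, 1.98 and 2.38 and a mean of 2.19 ± 0.31 (4.57-fold, adjusted p = 0.00071). Both were high on all 3 arrays. The other metallothionein gene, CRS5, had 1.39, 1.59 and 1.64 and a mean of 1.54 ± 0.43. The list of metallothioneins and of copper, iron and zinc uptake held 42 genes, of which 3 rose (7.14%) and 5 fell (11.9%), the share that fell being near the 12.7% of all genes. FTR1, the high-affinity iron permease, fell, with -0.49, -2.99 and -3.30 and a mean of -2.26 ± 0.60. FET4, a low-affinity iron transporter, had -0.70, -2.46 and -1.98 and a mean of -1.71 ± 0.46. Both were far lower on replicates 2 and 3. The other 3 that fell were the siderophore transporter SIT1, the reductase FRE4 and the vacuolar zinc transporter ZRC1, with means from -1.49 to -1.04. Without replicate 2 or 3 the counts were 2 higher, the CUP1 copies, and 0 lower. Of 25 phosphate regulon genes 0 rose and 5 fell (20%), led by the acid phosphatases PHO3 (-0.71, -3.08 and -2.52, mean -2.10 ± 0.47) and PHO5 (-0.21, -2.44 and -2.56, mean -1.74 ± 0.53). Without replicate 2 or 3, 0 of them were called.

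Among 34 stress and growth transcription factors, 3 rose (8.82%) and 4 fell (11.8%), beside 4.98% and 12.7% of all genes. YAP1, the redox regulator, had 0.98, 0.80 and 0.75 and a mean of 0.84 ± 0.23 (1.79-fold, adjusted p = 0.0207), with the arrays close together. XBP1 (0.71, 1.45 and 1.30, mean 1.16 ± 0.25), a repressor of stressed cells, and USV1 (0.20, 1.67 and 1.59, mean 1.15 ± 0.35), a regulator of growth on non-fermentable carbon, rose on replicates 2 and 3 and less on replicate 1. GCN4, the activator of amino acid synthesis genes, had -0.30, -3.27 and -3.11 and a mean of -2.23 ± 0.48 (adjusted p = 0.00572). TOD6, a repressor of ribosome synthesis genes, had -0.17, -1.84 and -1.29 and a mean of -1.10 ± 0.36. SKN7, which acts with Yap1 on redox genes, had -0.13, -1.17 and -0.96 and a mean of -0.76 ± 0.25 (adjusted p = 0.0442). In all 3, replicates 2 and 3 carried the fall. With the brightness trend removed, SKN7 was no longer called (adjusted p = 0.0525). The fourth was IFH1, a coactivator of ribosomal protein genes (-1.05 ± 0.30). MSN2 (-0.055 ± 0.20), MSN4 (0.00 ± 0.24) and HSF1 (0.015 ± 0.25) had means near 0 (adjusted p = 0.865, 0.998 and 0.969), and HSF1 was at 0.76 on replicate 1. Of the 34 factors, 0 were called without replicate 2 or 3. Of 19 drug efflux pump genes 2 rose (10.5%) and 0 fell, and 0 were called without replicate 2 or 3. FLR1, a known Yap1 target, had 0.63, 1.24 and 1.51 (mean 1.13 ± 0.33), and ATR1 had 1.91, 0.44 and 0.59 (mean 0.98 ± 0.28), highest on replicate 1.

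Ribosomal protein genes had the lowest median of the 46 lists. Of 132 cytosolic ribosomal protein genes, 120 fell and 0 rose (90.9% of the list, beside 12.7% of all genes), with a median of -2.43. The median was -0.47, -3.32 and -3.47 on replicates 1, 2 and 3. On replicate 1, whose ratios had a narrow spread (SD 0.489), the list's median thus lay below the median gene. On the other arrays it was about 3 log2 units lower still. All 3 arrays were negative in 99 of the 132 genes. Left out in turn, replicate 1 gave 124 fallen genes, replicate 2 gave 16 and replicate 3 gave 12. The list's spots were bright (median log2 brightness 11.2, against 8.83 for all genes), and ratios fell with brightness on replicates 2 and 3. With that trend removed, 102 of the 132 fell, the median was -1.46, and the medians by array were -0.47, -1.78 and -2.07. The part of brightness in the remaining fall was not tested. Of the 12 that were not called, RPS19A (0.41, 1.50 and 2.19, adjusted p = 0.0981) and RPS30A (0.56, 1.06 and 0.60, adjusted p = 0.102) had the highest means, above 0 on all 3 arrays. Of 75 mitochondrial ribosomal protein genes 0 rose and 4 fell (5.33%, below the 12.7% of all genes), with a median of 0.04 and a median brightness of 8.83.

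Genes for making ribosomes and for translation fell as well. Of 126 ribosome biogenesis factors 75 fell (59.5%) and 1 rose, with a median of -1.02 (-0.40, -1.23 and -1.42 on replicates 1, 2 and 3). CBF5 and the helicase MAK5 (-0.28, -3.82 and -3.60, mean -2.57 ± 0.61) had the largest falls. Another helicase gene, DBP1, rose (1.43, 1.40 and 1.45, mean 1.43 ± 0.26). The list's median brightness was 8.97, against 8.83 for all genes, and with the brightness trend removed 74 fell, with a median of -0.93. Without replicate 2 or 3, 2 of the 126 fell. Of 19 subunits of RNA polymerases I and III 7 fell (36.8%). RPA49 had -0.60, -2.74 and -3.14 (mean -2.16 ± 0.46), and RPA135, a core subunit of polymerase I, -0.71, -2.23 and -2.84 (mean -1.93 ± 0.41). Of 37 translation initiation and elongation factors 19 fell (51.4%). The elongation factor EFT1 had -0.38, -3.28 and -3.48 (mean -2.38 ± 0.56) and YEF3, which is specific to fungi, -0.24, -3.24 and -3.62 (mean -2.37 ± 0.52). In all 4 of these genes replicates 2 and 3 were lower than replicate 1. Of 20 cytosolic aminoacyl-tRNA synthetases 16 fell (80%). The leucine enzyme CDC60 had -0.98, -2.56 and -2.32 (mean -1.95 ± 0.36) and the threonine enzyme THS1 -0.16, -3.01 and -2.33 (mean -1.84 ± 0.54). The synthetases' median was -0.28, -1.91 and -1.88 on replicates 1, 2 and 3, and 0 members of these 3 lists were called without replicate 2 or without replicate 3. The translation factors were bright (median 10.3), and removing the brightness trend moved their median from -1.18 to -0.46, with 14 fallen. The synthetases' median moved from -1.38 to -0.99, with 14 fallen, and 8 polymerase subunits fell. With a dye term, 93 cytosolic ribosomal protein genes, 35 biogenesis factors, 4 polymerase subunits, 6 translation factors and 2 synthetases fell.

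**Figure D2:**
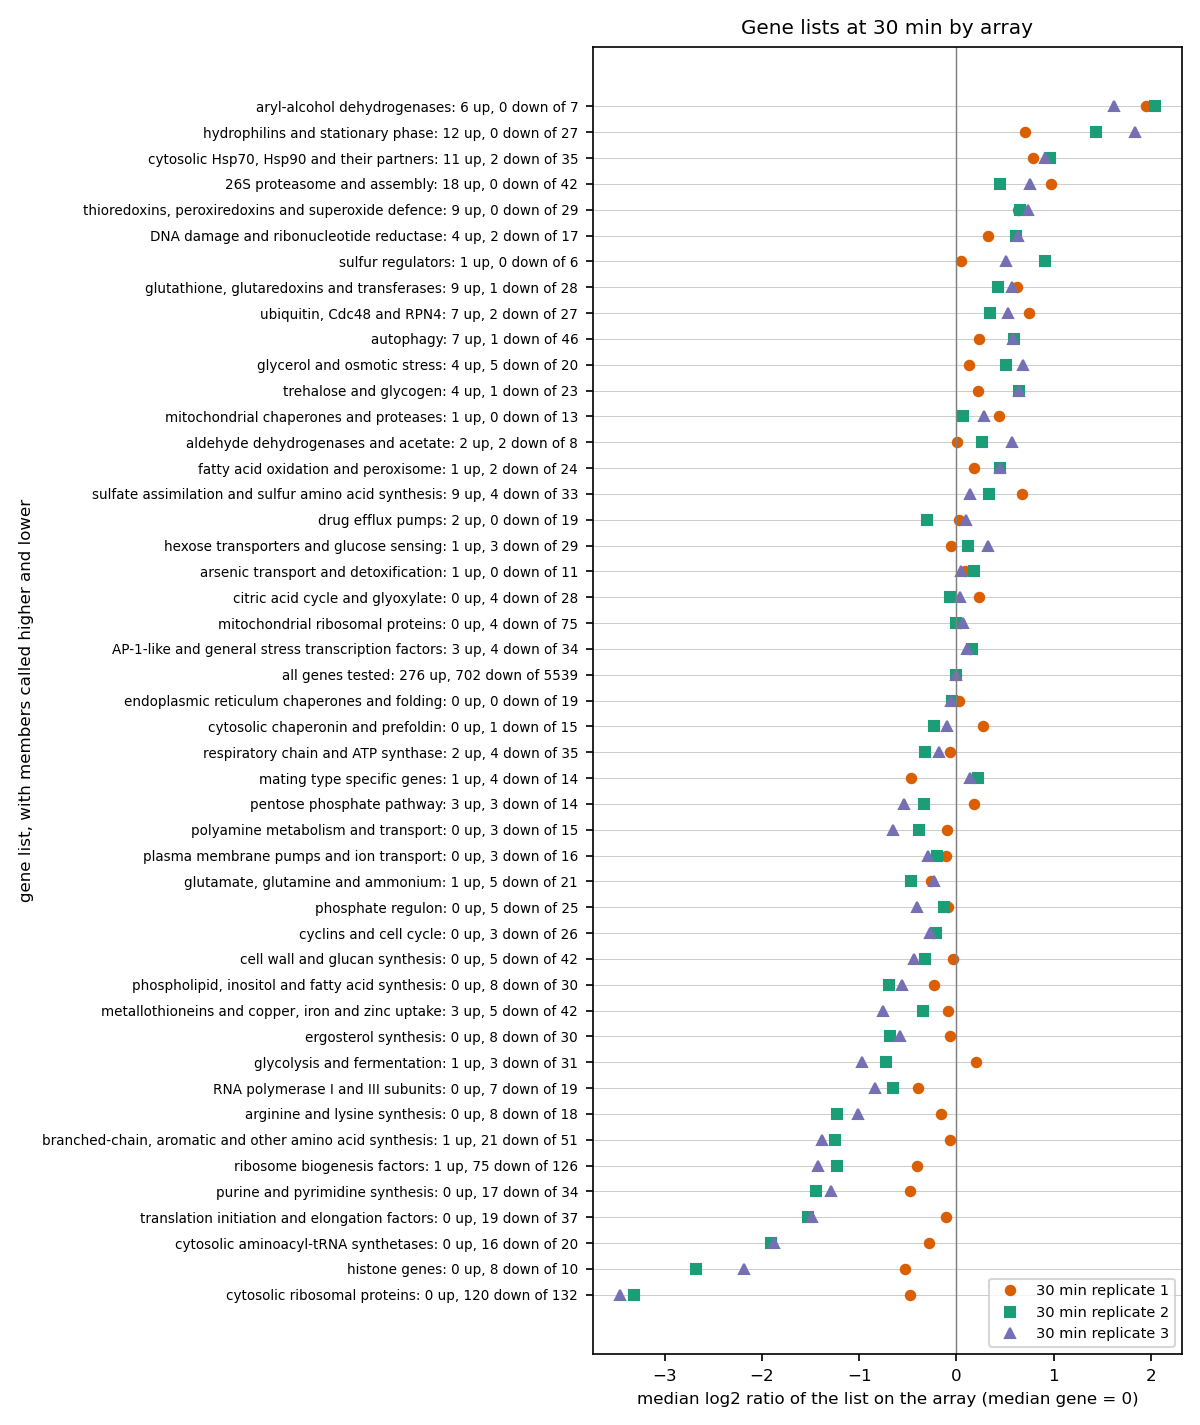
Median log2 ratio (horizontal axis, median gene = 0) of each of 46 gene lists on 30 min replicates 1, 2 and 3, ordered by the mean over arrays, with the number of members called higher (up) and lower (down) at the left and all 5539 genes as a row of their own. The 3 points lie on the same side of 0 for the proteasome, thioredoxin and aryl-alcohol dehydrogenase lists, and replicate 1 lies far to the right of replicates 2 and 3 for ribosomal proteins (-0.47 against -3.32 and -3.47) and histones.

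**Figure D3:**
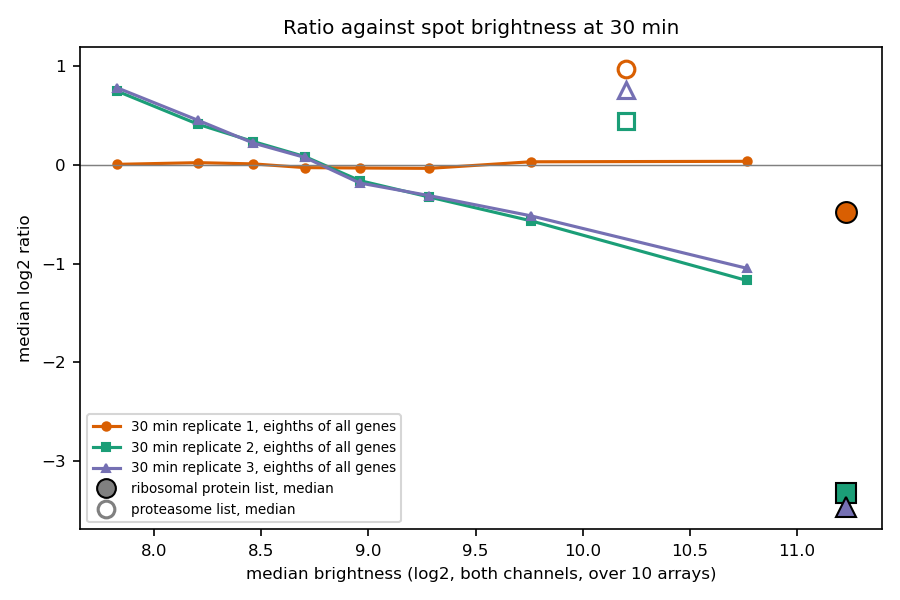
Median log2 ratio (vertical axis) against median spot brightness (horizontal axis, mean log2 of both recovered whole numbers, over 10 arrays) for eighths of all genes on each 30 min array (lines), with the medians of the ribosomal protein list (filled) and of the proteasome list (open). Lines of replicates 2 and 3 run from 0.75 and 0.78 in the dimmest eighth to -1.17 and -1.05 in the brightest, that of replicate 1 stays near 0, and both lists lie off the lines of their arrays.

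In 4 lists of amino acid and nucleotide synthesis, 23.8% to 50% of members fell, beside 12.7% of all genes. Of 51 genes for branched-chain, aromatic and other amino acids, 21 fell and 1 rose, and the list's median was -0.061, -1.25 and -1.39 on replicates 1, 2 and 3. HIS1, the first enzyme of histidine synthesis, had -0.81, -2.21 and -2.61 and a mean of -1.88 ± 0.35, second to ILV5. The riser was ARO9, an aromatic aminotransferase of amino acid breakdown (0.61, 1.17 and 1.56, mean 1.12 ± 0.26). Of 18 arginine and lysine genes 8 fell. ARG4, the last enzyme of arginine synthesis, had -0.61, -2.31 and -2.76 (mean -1.89 ± 0.38) and ARG1, the step before it, -0.47, -2.35 and -2.71 (mean -1.84 ± 0.44). Both were nearer 0 on replicate 1 than on the others. Of 21 genes for glutamate, glutamine and ammonium 5 fell and 1 rose. After GDH1, the largest fall was of GLN1, glutamine synthetase, with -0.80, -2.95 and -2.21 (mean -1.98 ± 0.45). GAD1, glutamate decarboxylase, rose, with 1.11, 1.34 and 1.57 (mean 1.34 ± 0.24) and little difference between arrays. Of 34 purine and pyrimidine genes 17 fell and 0 rose. URA7, a CTP synthase, had -1.06, -3.13 and -3.66 (mean -2.62 ± 0.46) and IMD4, an IMP dehydrogenase, -0.90, -2.92 and -3.01 (mean -2.28 ± 0.39), both lower on replicates 2 and 3. Without replicate 2 the 4 lists had 0, 0, 1 and 0 fallen genes, and without replicate 3 they had 0 each. After the brightness trend was removed they had 12, 4, 5 and 16 fallen genes, and 2, 0, 5 and 0 risen ones. With a dye term 3, 1, 2 and 9 fell (248 of all genes), and without centring 6, 4, 3 and 10 fell (312 of all genes).

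Carbon metabolism changed gene by gene. Of 31 genes of glycolysis and fermentation 1 rose and 3 fell, shares below those of all genes. PFK1, a phosphofructokinase subunit, had -0.65, -1.92 and -1.86 (mean -1.48 ± 0.32), and the other subunit, PFK2, had -0.55, -1.98 and -1.89 (mean -1.47 ± 0.33). Both phosphofructokinase genes were lower on replicates 2 and 3 than on replicate 1. ADH3 also fell, and GPM2, a mutase paralog without known activity, rose, with 0.50, 1.75 and 1.15 (mean 1.13 ± 0.27). The list was bright (median 11.0), and its median of -0.57 became 0.01 when the brightness trend was removed. Of 14 pentose phosphate pathway genes 3 rose and 3 fell (21.4% each, beside 4.98% and 12.7% of all genes). ZWF1, glucose-6-phosphate dehydrogenase, the entry step that forms NADPH, rose, with 1.48, 0.83 and 0.91 (mean 1.07 ± 0.32). SOL4, a lactonase of the second step, rose, with 0.84, 2.36 and 2.72 (mean 1.97 ± 0.60). ZWF1 was highest on replicate 1 and SOL4 lowest on it. TKL1, transketolase of the branch that rearranges sugars, fell, with -0.73, -3.24 and -3.32 (mean -2.43 ± 0.49). RKI1, the ribose isomerase, fell, with -1.07, -1.45 and -2.37 (mean -1.63 ± 0.44). SOL1 (higher) and TAL1 (lower) were the remaining called genes. Of 8 aldehyde dehydrogenase and acetate genes 2 rose and 2 fell (25% each). ALD3, a cytosolic isoform, had 0.52, 2.42 and 2.44 (mean 1.79 ± 0.41), and ALD4, a mitochondrial one, 0.93, 0.67 and 1.28 (mean 0.96 ± 0.31). ALD5 (-2.08 ± 0.52) and ALD6 (-1.41 ± 0.40), which makes cytosolic acetate, fell. Of 29 hexose transporter and glucose sensing genes 1 rose (3.45%) and 3 fell (10.3%), shares below those of all genes. The transporter HXT2 had -1.29, -2.16 and -2.14 (mean -1.86 ± 0.31), and HXT3 had 0.50, -2.97 and -2.56 (mean -1.68 ± 0.52), the second of them above 0 on replicate 1. EMI2, a hexokinase-like gene, rose, with 1.18, 1.30 and 1.46 (mean 1.31 ± 0.24). The glycolysis, pentose phosphate and aldehyde lists had 0 called genes without replicate 2 or 3, and the hexose list had 1 higher and 1 lower without replicate 2 and 0 and 1 without replicate 3. Without replicate 1 the pentose phosphate list had 1 higher and 6 lower, and the glycolysis list 1 and 9. With the brightness trend removed, PFK2 (adjusted p = 0.0766), HXT3 (0.137), TAL1 (0.0522) and ADH3 (0.704) were no longer called.

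Reserve carbohydrate and osmolyte genes also moved both ways. Of 23 trehalose and glycogen genes 4 rose (17.4%, beside 4.98% of all genes) and 1 fell (4.35%, beside 12.7%). TSL1, a subunit of trehalose synthase, had 0.90, 2.28 and 2.51 (mean 1.90 ± 0.39), and PGM2, phosphoglucomutase, 0.92, 1.20 and 1.36 (mean 1.16 ± 0.25). The cyclin PCL10 fell, with -0.18, -1.91 and -1.65 (mean -1.25 ± 0.30). TSL1 and PGM2 were lowest on replicate 1. Of 20 glycerol and osmotic stress genes 4 rose (20%) and 5 fell (25%). GRE3, an aldose reductase (1.35, 2.31 and 2.39, mean 2.02 ± 0.30, adjusted p = 0.00085), and GCY1, a glycerol dehydrogenase (1.55, 1.43 and 1.79, mean 1.59 ± 0.28), had the largest rises. GUP1, an acyltransferase once linked to glycerol uptake (-0.81, -2.54 and -2.53, mean -1.96 ± 0.37), and GPP1, a glycerol phosphatase (-0.094, -2.80 and -2.92, mean -1.94 ± 0.48), had the largest falls. Without replicate 2 or 3, 0 genes of the trehalose and glycogen list were called. The glycerol list had 2 higher and 0 lower without replicate 2, and 1 higher and 0 lower without replicate 3. GPP1 was no longer called with the brightness trend removed (adjusted p = 0.0608).

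Of 27 hydrophilin and stationary phase genes 12 rose (44.4%, beside 4.98% of all genes) and 0 fell, with a median of 1.22 (0.71, 1.43 and 1.84 on replicates 1, 2 and 3). HSP12 and RTC3 had the largest rises, followed by TMA10. DDR2, a small stress protein, had 0.98, 2.95 and 3.12 and a mean of 2.35 ± 0.65. YGP1, a secreted glycoprotein, had 2.21, 2.33 and 2.40 and a mean of 2.31 ± 0.35 (adjusted p = 0.00108). DDR48, a stress protein first found after DNA damage, had 2.38, 2.19 and 2.25 and a mean of 2.27 ± 0.29 (adjusted p = 0.000409). The 3 arrays of DDR48 and of YGP1 were nearly equal, and DDR2 was far lower on replicate 1. The other 6 were MSC1, SPI1, the nicotinamidase PNC1, RTN2, the mitochondrial protein OM45 and SNZ3, with means from 0.97 (SNZ3) to 2.15 (MSC1). The count was 16 without replicate 1 and 6 without replicate 2 or replicate 3.

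Membrane lipid genes fell in part. Of 30 ergosterol genes 8 fell (26.7%, beside 12.7% of all genes) and 0 rose. ERG3, a sterol desaturase, had -1.07, -2.47 and -2.11 (mean -1.88 ± 0.53), and ERG11, the demethylase that azole drugs inhibit, -0.82, -2.12 and -1.90 (mean -1.61 ± 0.33). Both were negative on every array. Of 30 phospholipid, inositol and fatty acid genes 8 fell (26.7%) and 0 rose. The choline transporter HNM1 had -0.78, -3.98 and -3.51 (mean -2.76 ± 0.66), and the elongase ELO3 had -0.92, -3.35 and -2.82 (mean -2.36 ± 0.43). HNM1 was negative on all 3 arrays and much lower on replicates 2 and 3. Of 16 plasma membrane pump and ion transport genes 3 fell (18.8%): the proton pumps PMA1 and PMA2 and the sodium pump ENA2. PMA1, the main proton pump, had -0.15, -2.78 and -2.88 (mean -1.94 ± 0.55). Of 15 polyamine genes MEU1, SPE3 and SPE2 fell (20%). MEU1, which recycles methylthioadenosine, had -0.37, -2.96 and -3.01 (mean -2.11 ± 0.44), and SPE3, spermidine synthase, -0.65, -1.98 and -2.05 (mean -1.56 ± 0.37). In these 4 lists 1 fallen gene was called without replicate 2 and 0 without replicate 3. Removing the brightness trend left 6, 8, 2 and 3 fallen genes, without PMA1 (adjusted p = 0.0571), and gave 1, 1, 3 and 0 risen ones. The median of the pump list moved from -0.18 to 0.054.

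Of 10 histone genes 8 fell (80%, beside 12.7% of all genes) and 0 rose, with a median of -1.93 (-0.53, -2.68 and -2.18 on replicates 1, 2 and 3). HTA2, encoding histone H2A, had -1.46, -3.42 and -2.91 (mean -2.60 ± 0.56), and HTB2, encoding H2B, had -0.48, -3.33 and -2.85 (mean -2.22 ± 0.61). HHF2, encoding H4, had -1.65, -2.65 and -2.12 (mean -2.14 ± 0.29, adjusted p = 0.000536), the lowest value of the list on replicate 1. The list was bright (median 10.8), and its median became -0.88, with 7 fallen, when the brightness trend was removed. The count of fallen histone genes was 1 without replicate 2 and 1 without replicate 3. Of 17 DNA damage and ribonucleotide reductase genes DDR48, RAD52, MAG1 and DIN7 rose, and RNR1 and RNR3 fell. These were 23.5% and 11.8% of the list, beside 4.98% and 12.7% of all genes. RAD52, a recombination gene, had 0.70, 0.84 and 1.37 (mean 0.97 ± 0.20). RNR1, the large subunit of ribonucleotide reductase, had -0.32, -2.29 and -1.86 (mean -1.49 ± 0.47), and its paralog RNR3 -0.36, -1.08 and -0.58 (mean -0.67 ± 0.21). RNR1 (adjusted p = 0.0645) and DIN7 (0.079) lost their calls with the brightness trend removed, and without replicate 2 or 3 this list had 1 higher and 0 lower. Of 26 cyclin and cell cycle genes 3 fell (11.5%, near the 12.7% of all genes) and 0 rose, and 0 were called without replicate 2 or 3. The mitotic kinase CDC5 had -0.84, -1.53 and -1.08 (mean -1.15 ± 0.24) and the transcription factor SWI5 -0.89, -1.10 and -1.41 (mean -1.13 ± 0.32), negative on every array.

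The remaining lists had few called members. Of 46 autophagy genes 7 rose (15.2%, beside 4.98% of all genes) and 1 fell (2.17%, beside 12.7%). The vacuolar peptidase APE1 had 1.48, 1.14 and 1.77 (mean 1.46 ± 0.24) and the vacuolar protease PRB1 1.78, 1.11 and 1.48 (mean 1.46 ± 0.34). VPS15, a kinase of vesicle sorting, fell, with -0.86, -2.01 and -1.80 (mean -1.56 ± 0.39). The counts were 14 and 2 without replicate 1, 2 and 0 without replicate 2, and 0 and 0 without replicate 3. Of 42 cell wall genes 0 rose and 5 fell (11.9%). With the brightness trend removed 8 of them rose and 5 fell, and the list's median moved from -0.24 to 0.15. The transglycosylase UTR2 had -0.75, -2.56 and -2.77 (mean -2.03 ± 0.44) and TOS6 -1.39, -1.39 and -1.46 (mean -1.41 ± 0.36). The 3 arrays of TOS6 were nearly equal, and UTR2 was lower on replicates 2 and 3. Of 28 citric acid cycle and glyoxylate genes 4 fell (14.3%), among them the isocitrate dehydrogenases IDP1 (-1.89 ± 0.43) and IDH1 (-1.29 ± 0.42). Of 35 respiratory chain and ATP synthase genes 2 rose and 4 fell (5.71% and 11.4%). CYC7, the hypoxic cytochrome c isoform, had 0.31, 1.83 and 2.28 (mean 1.47 ± 0.43), and ATP16, an ATP synthase subunit, 0.12, 1.97 and 2.23 (mean 1.44 ± 0.36). QCR6 (-1.84 ± 0.47) and NDE1 (-1.49 ± 0.50) had the largest falls. Of 24 fatty acid oxidation and peroxisome genes the transporter PXA2 rose (0.81 ± 0.27), and FAA4 (-1.89 ± 0.44) and PEX14 (-1.29 ± 0.38) fell. These were 4.17% and 8.33% of the list, below the 4.98% and 12.7% of all genes. Of 14 mating type specific genes 1 rose (7.14%) and 4 fell (28.6%). STE3, the a-factor receptor, had 0.70, 1.28 and 1.60 (mean 1.19 ± 0.40). MF(ALPHA)2, encoding the alpha pheromone, had -0.54, -4.01 and -3.40 (mean -2.65 ± 0.48), and AGA2, an adhesin of a cells, -0.99, -1.56 and -1.47 (mean -1.34 ± 0.29). In the cell wall, citric acid cycle, respiratory chain, fatty acid oxidation and mating type lists, 0 genes were called without replicate 2 or without replicate 3. With the brightness trend removed, ATP16 (adjusted p = 0.146), QCR6 (0.0725), IDH1 (0.0881), PXA2 (0.0718) and PEX14 (0.211) were no longer called.

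The genes whose call did not rest on any 1 of the 3 arrays were few. Called with each 30 min array left out in turn were 30 of the 276 risen and 19 of the 702 fallen genes. The risen ones were HSP12, HSP26, SSA4, HSP31, OYE3, PRX1, MET3, MET16, ARR2, both CUP1 copies, AAD14, CUZ1, DDI1, UBC5, RPN11, UMP1, DDR48, YGP1, MSC1, RTC3, PNC1, GRE3, FPT1, LPL1, NCE103, TFS1, YHR138C, YML131W and YNL134C. LPL1, a lipase of lipid droplets, had 1.02, 1.49 and 1.86 (mean 1.45 ± 0.20), NCE103, the carbonic anhydrase, 2.23, 2.35 and 1.63 (mean 2.07 ± 0.36), and TFS1, an inhibitor of carboxypeptidase Y, 1.68, 2.03 and 2.55 (mean 2.09 ± 0.29). The fallen ones were 11 ribosomal protein genes, HHF2, HXT2, NOP56, IPI3, POL12, IRA2, ESC1 and FAR10. RPL30 had -1.07, -1.99 and -2.03 (mean -1.70 ± 0.28) and RPS28A -1.26, -2.64 and -2.07 (mean -1.99 ± 0.32), so these genes were below -1 on every array. IRA2, an inhibitor of Ras, had -0.91, -1.58 and -1.54 (mean -1.35 ± 0.22) and POL12, a subunit of DNA polymerase alpha, -1.08, -1.94 and -2.10 (mean -1.71 ± 0.27). With the 3 arrays fitted alone, the 15 called genes were AAD14, CUP1-1, CUP1-2, DDI1, DDR48, HSP12, HSP31, MET3, MET16, OYE3, PRX1, SSA4, YGP1, YHR138C and YMR090W.

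**Figure D4:**
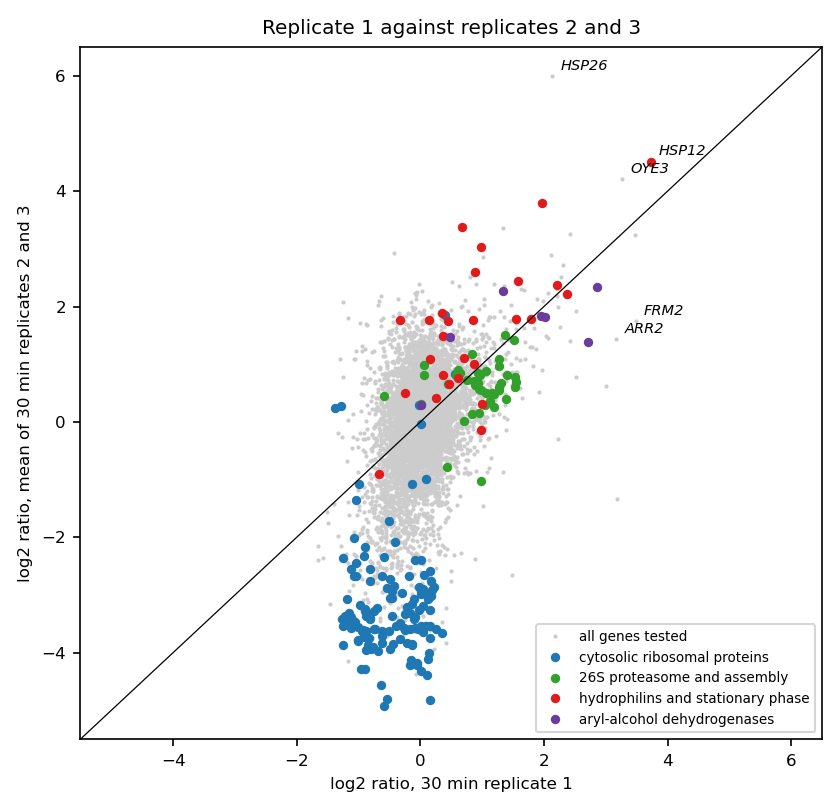
Mean log2 ratio of 30 min replicates 2 and 3 (vertical axis) against the log2 ratio of replicate 1 (horizontal axis) for all 5539 genes (grey), with members of 4 lists in colour and the diagonal of equal values. Most ribosomal protein genes lie far below the diagonal, and AAD6 (1.33 on replicate 1) and AAD4 (0.49) lie above it. FRM2 (3.48, 1.73 and 1.77 on replicates 1, 2 and 3) and ARR2 were above 0 on all 3 arrays and highest on replicate 1, so they too lie below the diagonal.

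The 30 min values were then compared with those after 15 min and after 1 h in the same fit. Against 15 min, 0 genes were called higher and 0 lower (0% of 5539 in each direction), although 385 genes had an unadjusted p under 0.05. Without 30 min replicate 1, 10 genes were higher and 205 lower. Without 15 min replicate 2, whose profile resembled 30 min replicates 2 and 3, 10 were higher and 0 lower. The ribosomal protein list's median was -2.43 after 30 min and -0.63 after 15 min. That of the Hsp70 and Hsp90 list was 0.84 after 30 min and 1.01 after 15 min. No difference between these lists' medians was tested. GRE2 shows the spread at 15 min, with -0.95, 2.31 and 3.69 on its 3 arrays, against 1.18, 2.24 and 2.55 after 30 min.

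Against 1 h, 5 genes were higher after 30 min (0.0903%) and 21 were lower (0.379%), with 554 at an unadjusted p under 0.05. The 5 higher ones were genes whose ratio was less negative after 30 min. RPL22A had -1.12, -3.26 and -1.84 after 30 min, against a range from -5.39 to -3.55 over the 6 arrays after 1 h (difference 2.28, adjusted p = 0.0362), and the groups did not overlap. RPS18B differed by 2.11 and RPL37A by 1.97, again without overlap. RBD2, a rhomboid protease of the Golgi, was at -0.19 after 30 min and -1.74 after 1 h (difference 1.55), and GAB1, a subunit of the enzyme that attaches membrane anchors to proteins, at -0.96 and -2.10 (difference 1.13). The largest negative differences were of genes that lay higher after 1 h. GRE2 had 1.18, 2.24 and 2.55 after 30 min, against 5.06 to 5.83 after 1 h (difference -3.51, adjusted p = 0.0379). AAD6 had a mean of 1.95 after 30 min and 4.57 after 1 h (difference -2.61), AAD15 of 1.83 and 4.44 (difference -2.61), and YKL070W of 0.77 and 3.35 (difference -2.57). RPN4 had 1.18, 0.067 and 0.18 after 30 min, against 2.44 to 3.55 after 1 h (difference -2.56, adjusted p = 0.0324). In all 5 the 30 min arrays lay below every 1 h array. The genes named here were picked for large called differences, which favours such a lack of overlap. Its share among all genes was not counted. OYE3 (-2.16), AAD3 (-2.52), MET14 (-2.02), the peroxiredoxin TSA2 (-1.98) and MXR1 (-1.56) were among the other 16 lower genes. HSP12 (difference -0.93, adjusted p = 0.442) and SSA4 (difference -1.71, adjusted p = 0.244) were not called. The 1 h group held both dye orientations and the 30 min group treated RNA in Cy5 only, so a dye effect does not cancel in these differences. With only arrays that had treated RNA in Cy5, with a dye term, or with arrays scaled to equal spread, 0 genes were called in either direction, and leaving out 30 min replicates 1, 2 and 3 in turn gave 0, 1 and 4 higher and 0, 0 and 2 lower genes.

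**Figure D5:**
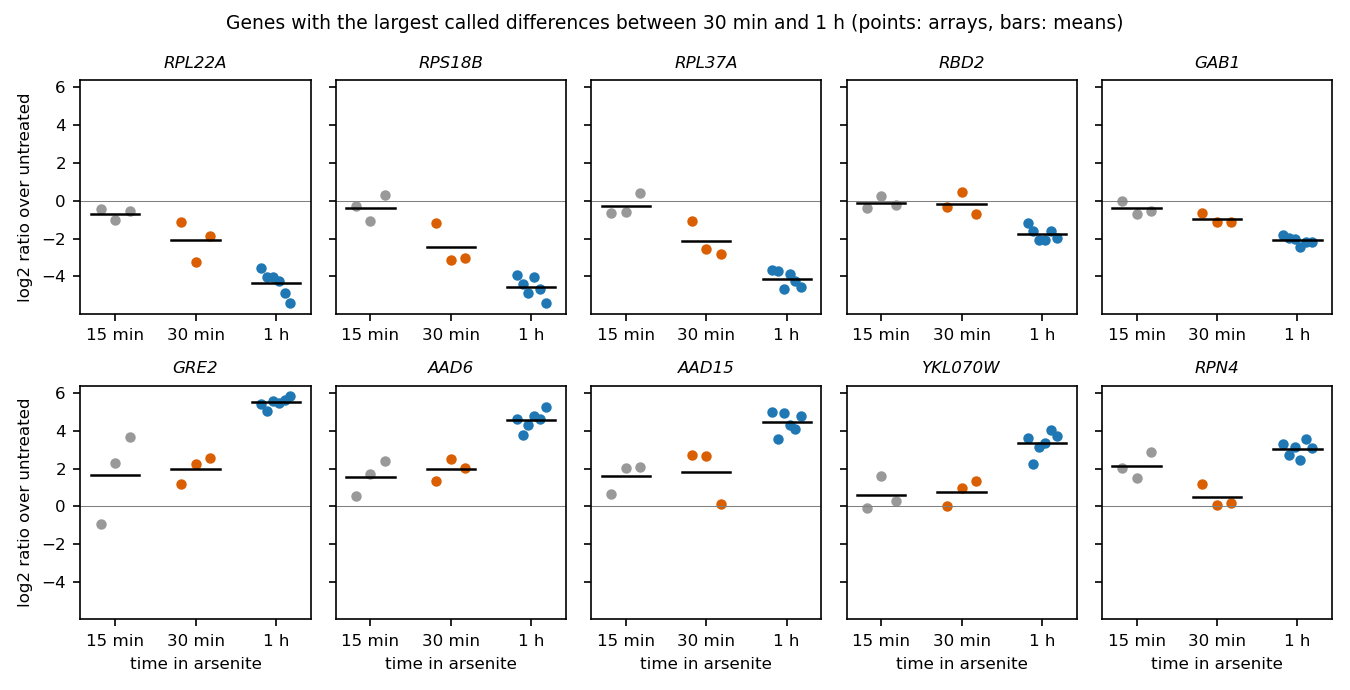
Log2 ratio over untreated (vertical axis, median gene = 0) after 15 min, 30 min and 1 h (horizontal axis) for the 10 genes with the largest called differences between 30 min and 1 h, with arrays as points and means as bars (n = 3, 3 and 6). The 30 min points lie above those of 1 h in the upper row and below them in the lower row, and at 15 min RPN4 lies at 2.03, 1.49 and 2.87, above all its 30 min arrays.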

How the data were processed

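The authors deposited 1 table of log2 ratios, a value per spot on each of 15 arrays; scanner intensities, background correction and normalization are not stated by the labels used here. The unit was read from the values, which on 10 arrays were log2 ratios of whole numbers at every spot (tolerance 5e-14). The 3 arrays with treated RNA in Cy3 hold too few digits to tell. For 15 min replicate 1 and 30 min replicate 1 they were not, and their base was taken from the other arrays. Of the table's spots, 11138 had a gene name and 1918 had none. Names were looked up in the R64 gene table, which held 11128 of them, and no symbol was updated.

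Spots of a gene were averaged (5539 genes, 5510 with 2 spots and 29 with more), and each array was centred on its gene median. limma 3.58.1 (lmFit, eBayes) in R 4.3.3 fitted a mean per time point over all 15 arrays and tested it against 0, two-sided, with Benjamini-Hochberg adjustment over all genes at 0.05. The number of arrays limits the precision. The fit was tested on simulated data first. Alternatives were a dye term, Cy5 arrays only, no centring, scaled arrays, removal of a trend on the brightness recovered from the whole-number ratios (lowess, span 0.3), array weights, fewer arrays, agreeing duplicate spots, robust eBayes and a replicate block (statmod 1.5.0).

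The time point and the gene lists were chosen with earlier results of these data known. Genes were named as the 12 largest rises and 12 largest falls of 1 sign on all 3 arrays, the 2 largest called rises and falls of each list (or its extremes), all arsenic transport and sulfur regulator genes with YAP1, MSN2, MSN4, HSF1, RPN4, SKN7 and GCN4, and the 5 largest called differences each way between times. Other genes named within a list were chosen after their values were seen.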

Additional observations from a re-analysis of the deposited data

Results flagged for a closer look

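The 10 genes here differed between 30 min and 1 h of arsenite by the fit's own contrast (limma, adjusted p under 0.05), 5 with a higher and 5 with a lower ratio at 30 min. Among the higher ones, the log2 difference was 2.28 for RPL22A (adjusted p = 0.0362), 2.11 for RPS18B (0.0470) and 1.97 for RPL37A (0.0355), 3 ribosomal protein genes. It was 1.55 for RBD2 (adjusted p = 0.0355), a rhomboid-family gene, and 1.13 for GAB1 (0.0496), a subunit of the GPI transamidase. Among the lower ones, it was -3.51 for the methylglyoxal reductase GRE2 (adjusted p = 0.0379), -2.61 for each of the aryl-alcohol dehydrogenases AAD6 (0.0300) and AAD15 (0.0362), -2.57 for YKL070W (0.0496) and -2.56 for RPN4 (0.0324), the activator of proteasome genes. None of the 10 was called when only the arrays with treated RNA in Cy5 were used, with a dye term, or with arrays scaled to equal spread, since each of these 3 fits called 0 genes.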

How the results depend on the processing

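The calls rested on the arrays and on the fit. Against untreated cells, 276 higher and 702 lower genes became 33 to 580 higher and 21 to 1001 lower when 1 of the 3 arrays at 30 min was left out. They became 181 and 248 with a dye term, 20 and 312 without centring, 510 and 637 with the brightness trend removed, 1594 and 1634 with array weights, 567 and 786 without the 15 min arrays, and 15 and 0 with the 30 min arrays fitted alone. In that last fit few degrees of freedom are left. Without 15 min replicate 1 and 30 min replicate 1, an alternative added after the data were seen, the counts were 700 and 1052. With Cy5 arrays only (208 and 568), scaled arrays (193 and 510), agreeing duplicate spots (278 and 698) and robust eBayes (272 and 694) both counts stayed within 1.5 times. Otherwise the cause was not tested.

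Between 30 and 15 min, 0 genes were called higher and 0 lower. The counts were 618 and 885 with array weights, 5 and 109 without both arrays named above, and 0 to 10 higher and 0 to 205 lower when 1 array was left out, with 10 and 205 without 30 min replicate 1 and 10 and 0 without 15 min replicate 2. Between 30 min and 1 h, 5 higher and 21 lower genes became 0 and 0 with a dye term, Cy5 arrays only or scaled arrays, 1 and 2 without centring, 118 and 64 with the brightness trend removed, 305 and 350 with array weights, 9 and 37 with only the arrays compared, and 0 and 5 without both arrays named above. Leaving out 1 array gave 0 to 5 higher and 0 to 34 lower. It gave 0 and 0 without 30 min replicate 1 or without 1 h replicate 3, 5 or 6, 1 and 0 without 30 min replicate 2, 4 and 2 without 30 min replicate 3, 4 and 6 without 1 h replicate 1, 5 and 34 without 1 h replicate 2, and 0 and 8 without 1 h replicate 4.

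Whether the replicate numbers pair the arrays is not stated by the labels. Deviations of same-numbered arrays correlated at 0.575, 0.635 and -0.322 between 30 and 15 min, and at 0.578, -0.239 and 0.074 between 30 min and 1 h. Arrays of different numbers were not compared in this way, so these values cannot decide it. With the number as a replicate block (estimated correlation 0.00024) the counts were 276 and 702 against untreated cells, 0 and 0 against 15 min, and 5 and 21 against 1 h. The 149 named genes include some, such as MSN2, HSF1 and RPN4, that were not called in the main fit and so could not lose a call. Of the 149, 102 lost their call without 30 min replicate 2, 109 without replicate 3 and 4 without replicate 1. Calls were lost by 116 with the 30 min arrays alone, 48 with a dye term and 56 without centring. None of the named genes was called with the opposite sign under any of the alternatives run. A planned comparison of promoter motifs was not run, because no promoter sequence was used here. Signal over background is unknown, so dim genes could not be set apart from genes below detection.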

Other observations

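Of the genes called at 30 min, 153 of the 276 higher and 314 of the 702 lower ones were in none of the 46 lists. The genes named here were chosen after their values were seen. FRM2, a nitroreductase-like protein, had log2 ratios of 3.48, 1.73 and 1.77 on replicates 1, 2 and 3 (mean 2.33). YHR138C, related to a vacuolar proteinase inhibitor, had 2.07, 2.05 and 2.42, and so was close to equal on the 3 arrays (mean 2.18, adjusted p = 0.000172 by limma). THI74, a putative transporter of the mitochondrion, had 1.99, 1.68 and 2.52 (mean 2.06). IME2, a kinase known for meiosis, had 2.26, 1.79 and 1.52 (mean 1.86). DCS2, related to the enzyme that degrades mRNA caps, had 0.81, 2.43 and 2.61 (mean 1.95) and was lowest on replicate 1.

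The falls outside the lists rested more on replicates 2 and 3. ASC1, a ribosome-bound scaffold protein, had -0.60, -3.80 and -3.59 (mean -2.66). It was no longer called by limma with the brightness trend removed (mean -1.57, adjusted p = 0.111). RHO4, a small GTPase of polarised growth, had 0.22, -3.76 and -4.13 (mean -2.56), with no fall on replicate 1. STT3, the catalytic subunit of oligosaccharyl transferase, had 0.00, -3.43 and -3.78 (mean -2.40). SVS1, a cell wall protein, had -1.66, -2.08 and -2.22 (mean -1.99), a fall on every array. MAE1, the mitochondrial malic enzyme, had -1.16, -2.26 and -2.64 (mean -2.02). HPT1, which salvages purines, had -0.98, -2.78 and -2.58 (mean -2.11).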
